A study of Mus musculus with 40 samples.

Results

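A set of 66 of the 23120 genes in the deposited hepatic expression table was higher at 10 µg/kg TCDD than in vehicle and higher at 10 than at 30 µg/kg. The members were chosen on their group means on the deposited log2 scale. The mean at 10 µg/kg had to exceed the vehicle mean and the 30 µg/kg mean by at least 0.585 each, and had to be at least 7. A difference of 0.585 is 1.5-fold at high counts. At low counts the deposited scale compresses differences, so the same value stands for a larger fold. Of the 72 genes that met these values, 6 were left out for symbols that begin with Col, Cyp, Ccl, Cxcl or Mup, namely Cyp7a1, Cyp2b10, Cxcl1, Col4a3, Mup-ps12 and Mup-ps14. The differences among vehicle, 10 and 30 µg/kg therefore describe the choice and carry no test.

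Liver RNA was sequenced from 40 male C57BL/6 mice, 1 library per mouse and 5 mice in each of 8 groups. Each mouse received 7 gavages of 0.1 ml sesame oil, 1 every 4 days, and the labels give an age of 30 days at the start and 58 days at the end, while the study's methods give a slightly younger age at the first gavage. The vehicle group received the oil alone, and the other groups received the dioxin TCDD in the oil at 1 of 7 doses per gavage, from 0.03, 0.1 and 0.3 through 1 and 3 up to 10 and 30 µg/kg. No genetic change separated the groups, and livers were sampled whole, so fewer cells of a type and less RNA per cell cannot be told apart. The titles number the mice in a lower run (run 1) and a higher run (run 2).

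TCDD is a ligand of the AhR (aryl hydrocarbon receptor), a transcription factor that on binding moves to the nucleus, pairs with ARNT and binds dioxin response elements with the core GCGTG. Its best known hepatic targets are enzymes that oxidize, conjugate and export foreign compounds. In the mouse liver, repeated TCDD is known to lower many hepatocyte genes while fat, inflammatory cells and matrix accumulate.

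The libraries held about 15496100 to 20967100 counts in genes. The replicate 1 mouse at 30 µg/kg stood apart from the other 4 mice of its group. On the first principal component of all genes, which carried 47.6% of the variance, it lay at 81.7, the other 4 lay at 129 to 147, and the mice at 10 µg/kg lay at 39.1 to 67.8. The 11 measured hepatocyte markers, none of them at 0 throughout a group, summed to 112579 to 136578 CPM (counts scaled to the library total and the TMM factor) in vehicle, 70968 to 112729 at 10 µg/kg and 32800 to 68049 at 30 µg/kg, where replicate 1 held the highest value. The 15 Kupffer cell and macrophage markers summed to 243 to 335 CPM in vehicle, 666 to 963 at 10 µg/kg and 894 to 2459 at 30 µg/kg, where replicate 1 held the lowest value. The 8 adipocyte markers, of which Lep was at 0 in all of these groups, Adig at 10 µg/kg and Adipoq at 30 µg/kg, summed to 2819 to 4167 CPM in vehicle, 340 to 947 at 10 µg/kg, 334 in replicate 1 at 30 µg/kg and 18.7 to 40.2 in the other 4 mice. Of the adipocyte markers only 2 reached a mean of 7 on the deposited log2 scale at 10 µg/kg, so this sum rests on few genes. No number of adipocytes is read from it. The part of these shifts in the values below was not tested. Values at 30 µg/kg are given for each mouse or, for most means and counts, also without replicate 1.

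The receptor's core sequence was looked for in the promoters of the members. Of the 66 members, 50 had a promoter in the RefSeq table for build GRCm38.p6, from 250 bases before to 50 bases after the start of the gene. GCGTG was read on both strands, and appears as CACGC where it lies on the other one. It stood in the 300 base window of 18 of the 50 members (36.0%) and of 9500 of 27025 genes in the table (35.2%). Printed here are the 250 bases before the start for Adra2c, Pls1 and Tnfaip8l3, chosen because they have vehicle means under 1 CPM and hold the core in this stretch, for Hmx1, the neighbour of Adra2c, and for the pair with the smallest slope p-values below 10 µg/kg (Sult5a1, Slc46a3), with GCGTG or CACGC in capitals. Other members with vehicle means under 1 CPM are not printed.
Adra2c (chr5:35278316-35278565, plus strand): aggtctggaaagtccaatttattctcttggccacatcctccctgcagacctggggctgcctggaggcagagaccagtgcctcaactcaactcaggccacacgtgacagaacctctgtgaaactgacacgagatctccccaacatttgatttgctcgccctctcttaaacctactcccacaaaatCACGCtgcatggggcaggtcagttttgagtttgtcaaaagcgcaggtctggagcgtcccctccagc
Hmx1 (chr5:35388611-35388860, plus strand): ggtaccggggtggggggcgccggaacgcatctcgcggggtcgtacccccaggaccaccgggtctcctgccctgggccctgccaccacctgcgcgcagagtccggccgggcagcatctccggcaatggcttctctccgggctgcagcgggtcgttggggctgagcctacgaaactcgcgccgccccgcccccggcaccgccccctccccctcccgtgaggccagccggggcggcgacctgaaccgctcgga
Pls1 (chr9:95845280-95845529, minus strand): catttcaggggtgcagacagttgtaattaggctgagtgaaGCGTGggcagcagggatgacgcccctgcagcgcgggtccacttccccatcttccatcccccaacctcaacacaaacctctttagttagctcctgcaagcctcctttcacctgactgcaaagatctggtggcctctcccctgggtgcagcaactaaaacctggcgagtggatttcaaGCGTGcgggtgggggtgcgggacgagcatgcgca
Tnfaip8l3 (chr9:54068412-54068661, minus strand): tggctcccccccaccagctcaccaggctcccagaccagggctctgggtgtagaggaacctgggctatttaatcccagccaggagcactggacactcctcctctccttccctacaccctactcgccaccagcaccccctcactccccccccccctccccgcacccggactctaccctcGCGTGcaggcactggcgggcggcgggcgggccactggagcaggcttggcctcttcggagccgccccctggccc
Sult5a1 (chr8:123158281-123158530, minus strand): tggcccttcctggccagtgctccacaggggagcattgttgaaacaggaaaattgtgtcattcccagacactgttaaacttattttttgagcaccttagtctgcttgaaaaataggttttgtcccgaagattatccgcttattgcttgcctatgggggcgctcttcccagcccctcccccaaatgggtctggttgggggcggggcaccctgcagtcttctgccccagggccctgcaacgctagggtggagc
Slc46a3 (chr5:147894816-147895065, minus strand): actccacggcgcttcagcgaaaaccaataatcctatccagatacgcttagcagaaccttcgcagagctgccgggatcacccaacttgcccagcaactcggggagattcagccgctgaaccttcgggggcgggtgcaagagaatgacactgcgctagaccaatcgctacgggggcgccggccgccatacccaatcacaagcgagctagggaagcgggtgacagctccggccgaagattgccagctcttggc
Each sequence runs 5′ to 3′ on the strand of its gene. The core stood once in the printed stretch of Adra2c and of Tnfaip8l3 and 2 times in that of Pls1. The absence of a match in Hmx1, Sult5a1 and Slc46a3 says only that these letters are not in this window.

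The highest group mean fell at 10 µg/kg for 55 members, at 3 µg/kg for 9 and at 1 µg/kg for 2 (Slc46a3 and Erbb4). The rise from vehicle to 10 µg/kg had a median of 0.92 on the deposited log2 scale, and the drop from 10 to 30 µg/kg had a median of 0.99. On log2 CPM these medians were 1.10 and 1.07. The mean at 30 µg/kg lay above vehicle by at least 0.585 for 18 members, within 0.585 of it for 39 and below it by at least 0.585 for 9. All 5 mice at 10 µg/kg lay above all 5 vehicle mice for 55 of the 66 members (8.80% of all genes) and above all 5 mice at 30 µg/kg for 15 (4.39% of all genes). For 14 members they lay above both groups (0.182% of all genes). These counts follow from the choice of the members, and nothing is read from them. The members just inside the threshold were Aldh1l1, with a smaller difference of 0.586, Nipal3 with 0.588 and Atf5 with 0.590. Those just outside were Zfas1 with 0.583, 2610528J11Rik with 0.581 and Manba with 0.559.

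In the 30 µg/kg group, the mouse that stood apart (replicate 1) was the highest of the 5 mice for 57 of the 66 members (86.4%, against 24.2% of all genes). It lay within the range of the 10 µg/kg mice for 44 (66.7%, against 71.8% of all genes) and above it for 6. Of all genes, 2226 were at 7 or more at 10 µg/kg and differed by at least 0.585 log2 between 10 µg/kg and the other 4 mice. These values do not exclude members, and 65 of the 66 members meet them. Replicate 1 was the highest of the 5 mice for 54.2% of the 2226 genes and the lowest for 752 of them. It lay within the range of the 10 µg/kg mice for 53.1%. Its value was nearer the 10 µg/kg mean than the mean of the other 4 mice for 83.7%. The same held for 90.9% of the members and 59.8% of all genes. The members were chosen on means that include this mouse, so these shares are a description. The median over the members of the log2 value minus the vehicle mean was 0.93 in replicate 1, −0.32, −0.32, 0.14 and 0.22 in the other 4 mice, and 0.95 to 1.12 in the mice at 10 µg/kg. Without it the median drop was 1.20 in place of 0.99, and the drop was larger for 65 of the 66 members, the exception being Gm34654. Without it all 5 mice at 10 µg/kg lay above the other 4 mice at 30 µg/kg for 46 members (8.95% of all genes), above these and all vehicle mice for 41 (0.593% of all genes), and 16 members in place of 9 lay below vehicle by the threshold.

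**Figure D1:**
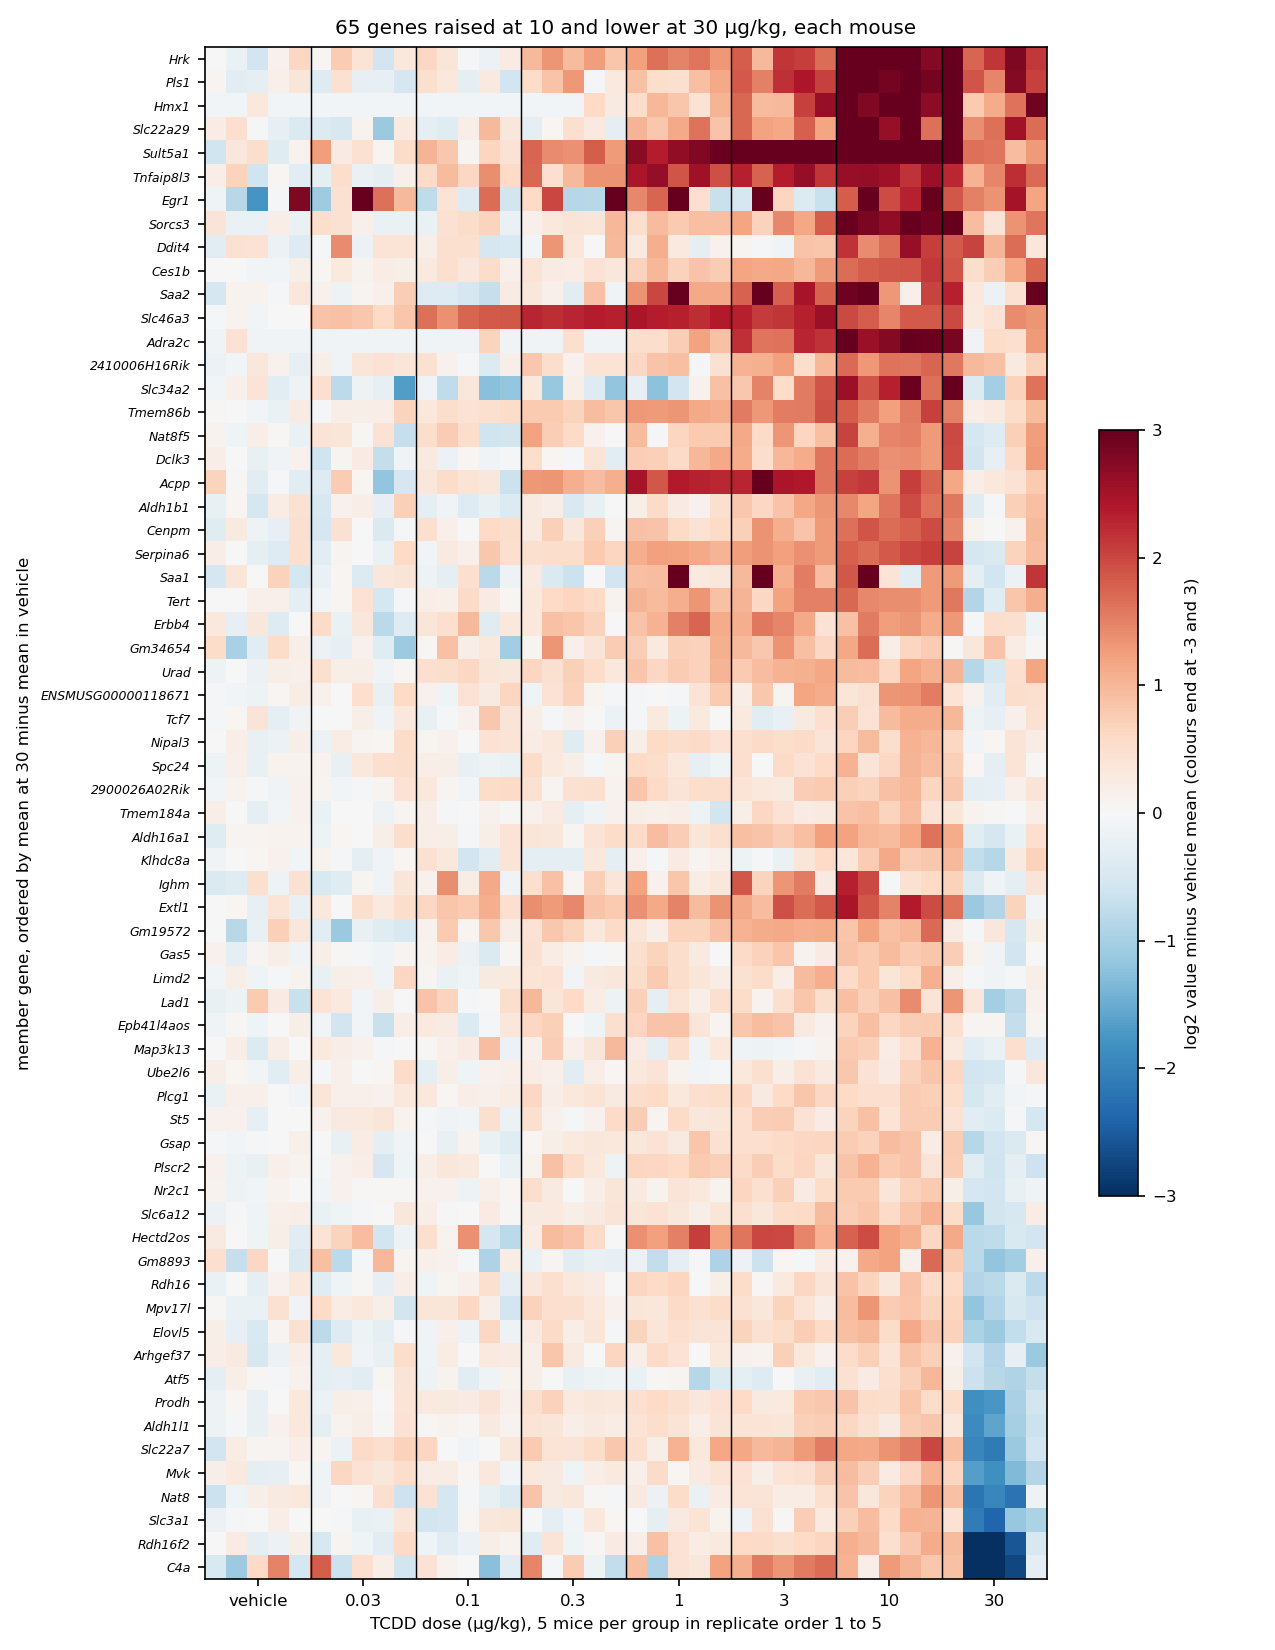
Deposited log2 value minus the vehicle mean (colour) of 65 of the 66 members (rows, ordered by the mean at 30 µg/kg minus the vehicle mean) in 40 mice (columns, grouped by dose in µg/kg). The columns at 10 µg/kg and the first column at 30 µg/kg are red for nearly all rows, and the 8 members with the lowest values at 30 µg/kg are blue in most of the other 4 columns.

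**Figure D2:**
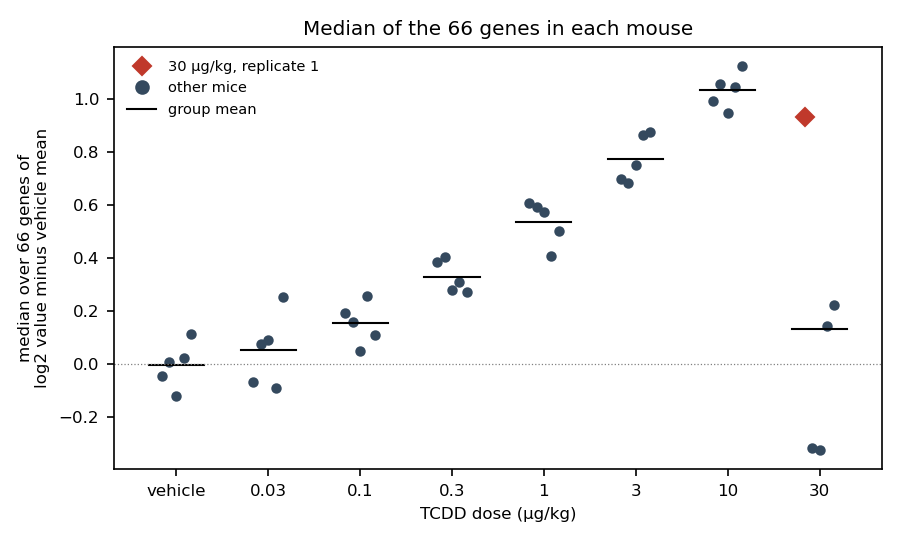
Median over the 66 members of the log2 value minus the vehicle mean in each mouse (points), with group means (lines), by TCDD dose in µg/kg. The mice at 10 µg/kg sit between 0.95 and 1.12, replicate 1 at 30 µg/kg (diamond) sits at 0.93, and the other 4 mice at 30 µg/kg sit between −0.32 and 0.22.

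The 25 mice at 0.03, 0.1, 0.3, 1 and 3 µg/kg were not used to choose the members, and changes among these doses were tested. The lowest dose at which a member began to change was not determined. Hepatic expression of most members rose across these doses. By the quasi-likelihood test of edgeR on a slope over the 5 ordered doses, 46 of the 64 members tested rose (71.9%, against 8.25% of all 14242 genes tested) and 0 fell (7.23% of all genes), with Benjamini-Hochberg adjusted p under 0.05. The slope had a median of 0.20 log2 per dose step among members and −0.001 among all genes. One of the members that did not pass, Gm8893, had an unadjusted p under 0.05 for a fall, and DESeq2 called 44 members, all of them rising. Sorcs3 and Hmx1 were not tested because their counts at these doses were too low. In the edgeR fit without the filter on low counts both were called as rising. The 830 genes that were higher at 10 µg/kg than in vehicle by the same threshold but not lower at 30 µg/kg had 826 tested, of which 483 rose (58.5%), and the difference from the members was not tested.

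Part of the members were higher from 1 µg/kg. With a fold of at least 1.5 and an adjusted p under 0.05 (edgeR), 23 members were higher at 1 µg/kg than at 0.03 and 0.1 µg/kg together (35.9% of those tested, against 2.72% of all genes) and 35 were higher at 3 µg/kg (54.7%, against 5.16%). None was lower in either comparison by this test (0.857% and 2.46% of all genes), and 1 and 0 had an unadjusted p under 0.05 for a lower value. Of the 826 tested genes that were higher at 10 µg/kg but not lower at 30 µg/kg, 23.7% were called higher at 1 µg/kg and 42% at 3 µg/kg. Their difference from the members was not tested. Between 1 and 3 µg/kg the edgeR test called 0 members higher (0.0421% of all genes) and 0 lower (0 genes). In that step 19 members had an unadjusted p under 0.05 for a higher value and 0 for a lower one, DESeq2 called 2 members, Adra2c and Pls1, higher, and without the filter on low counts edgeR called Pls1. Of the 23 members called at 1 µg/kg, the mean at 30 µg/kg lay above vehicle by the threshold for 10, near it for 13 and below it for 0. Of the 13 called at 3 but not at 1 µg/kg these counts were 4, 6 and 3. For the 11 that passed the slope alone they were 0, 8 and 3, and for the 17 that passed neither comparison nor the slope 2, 12 and 3. Without replicate 1 at 30 µg/kg the counts were 7, 15 and 1 for the first set and 2, 7 and 4 for the second. They were then 0, 7 and 4 for the slope alone and 2, 8 and 7 for the last set. The difference between these sets was not tested.

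**Figure D3:**
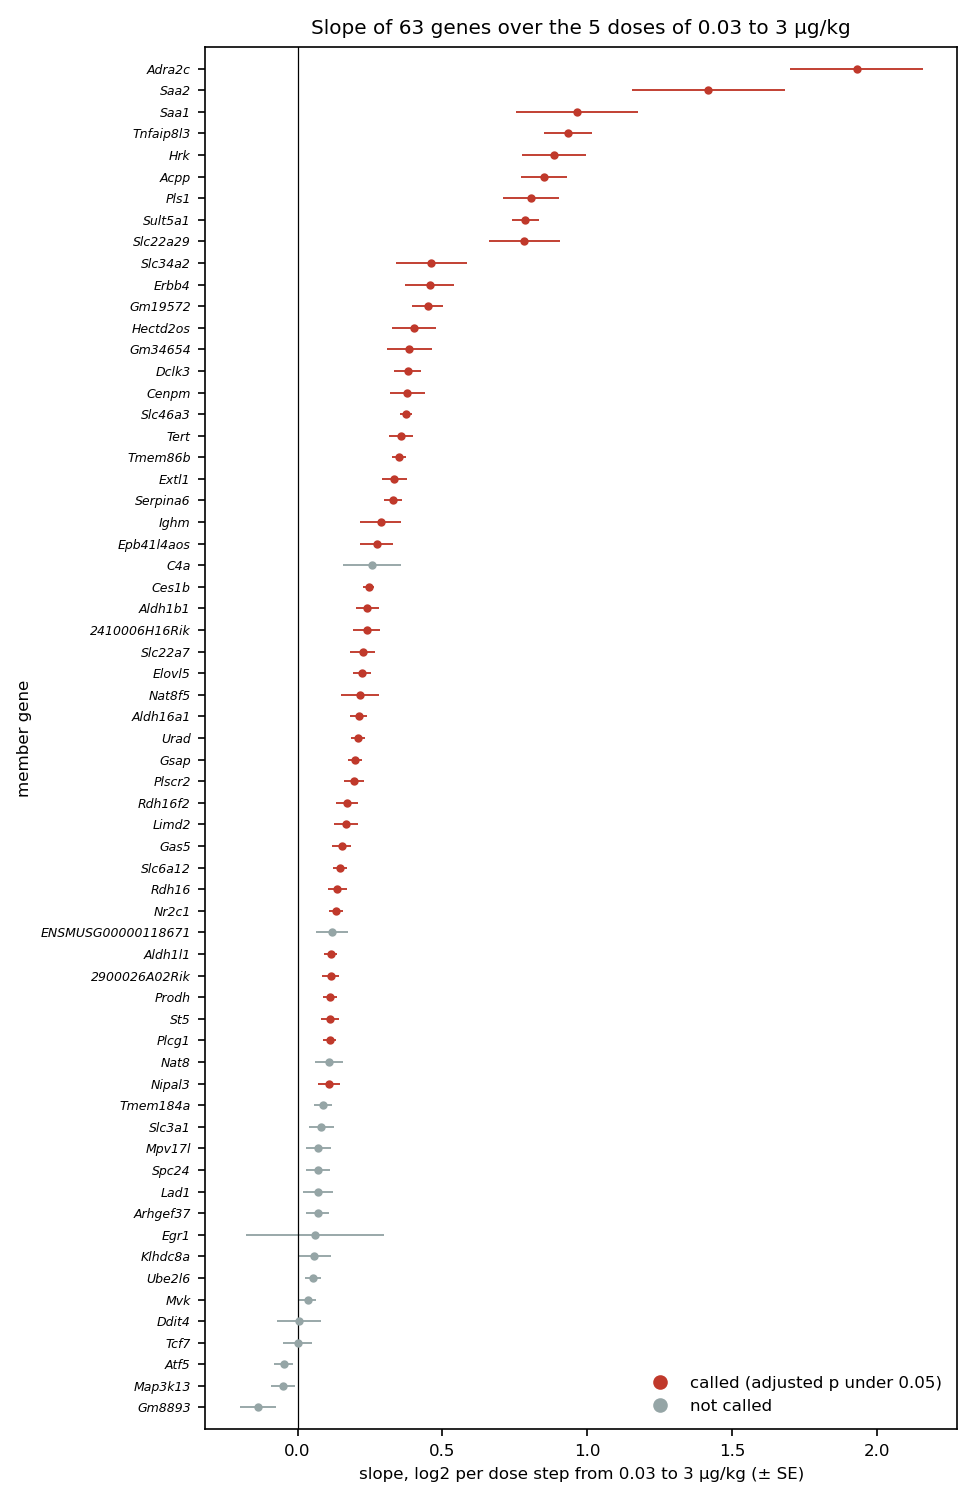
Slope in log2 per dose step over 0.03 to 3 µg/kg (points, ± SE from the edgeR fit of 25 mice) for 63 of the 64 members tested, with called members in red. The steepest slope is that of Adra2c at 1.93, and the 18 members that were not called lie between −0.14 for Gm8893 and 0.26 for C4a.

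The smallest slope p-values belonged to Slc46a3 and Sult5a1. The list of AhR target and xenobiotic genes held 2 members, and 15 of its 36 tested genes rose and 4 fell over 0.03 to 3 µg/kg (edgeR). Sult5a1 (ENSMUSG00000000739) is a sulfotransferase. Its CPM in replicate order was 11.4, 23.1, 26.7, 13.6 and 19.4 in vehicle, 197, 199, 172, 162 and 211 at 10 µg/kg, and 196, 60.0, 58.0, 35.6 and 45.8 at 30 µg/kg. Every 10 µg/kg mouse exceeded every vehicle mouse by a wide margin, and replicate 1 at 30 µg/kg lay among the 10 µg/kg mice while the other 4 lay between both groups. The mean was 9.99-fold higher at 10 µg/kg than in vehicle, and 2.38-fold higher than at 30 µg/kg (3.78-fold without replicate 1). It rose by 0.79 ± 0.05 log2 per step over 0.03 to 3 µg/kg (SE, edgeR adjusted p = 8.03e-13), from 27.6 ± 10.3 CPM at 0.03 µg/kg to 128 ± 19.6 at 1 µg/kg and 199 ± 31.2 at 3 µg/kg (SD, n = 5), so its mean was as high at 3 as at 10 µg/kg within the spread of the mice.

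Slc46a3 (ENSMUSG00000029650), a transporter of the lysosomal membrane, was close to its highest mean from 0.3 µg/kg. Its CPM was 57.4, 62.8, 55.4, 59.1 and 57.2 in vehicle, 236, 212, 166, 213 and 214 at 10 µg/kg, and 235, 71.0, 78.9, 157 and 148 at 30 µg/kg. The vehicle mice were nearly identical, and the mice at 30 µg/kg spread from close to vehicle up to the 10 µg/kg level. Its mean was 102 ± 7.77 CPM at 0.03 µg/kg, 192 ± 22.8 at 0.1, 292 ± 10.1 at 0.3, 305 ± 16.5 at 1 and 296 ± 37.7 at 3 µg/kg (SD, n = 5). The means at 0.3, 1 and 3 µg/kg did not differ beyond their spread, and all of them lay above the 10 µg/kg mean of 208 ± 25.7 CPM. Its slope was 0.37 ± 0.02 log2 per step (SE, edgeR adjusted p = 6.08e-13).

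The next smallest p-values were those of Tmem86b and Ces1b. Tmem86b, a lysoplasmalogenase that cleaves the vinyl ether bond of lysoplasmalogens, had 83.8 to 113 CPM in vehicle, 346, 289.9, 229, 286 and 402 at 10 µg/kg, and 282, 109.8, 117, 141 and 184 at 30 µg/kg. The mice at 10 µg/kg were all above vehicle, and at 30 µg/kg 1 mouse lay within the vehicle range, 3 lay between both groups and replicate 1 lay among the 10 µg/kg mice. It rose by 0.35 ± 0.02 log2 per step (SE, edgeR adjusted p = 5.86e-11). Ces1b, a carboxylesterase of a cluster of near-identical genes whose reads may not be told apart, rose by 0.25 ± 0.02 log2 per step (SE, edgeR adjusted p = 4.16e-10). It was 3.72-fold higher at 10 µg/kg than in vehicle. Acpp, an acid phosphatase, had its highest mean at 3 µg/kg (33.6 ± 17.3 CPM against 20.7 ± 4.59 at 10 µg/kg, SD, n = 5) and all 5 of its 10 µg/kg mice lay above all vehicle and all 30 µg/kg mice.

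**Figure D4:**
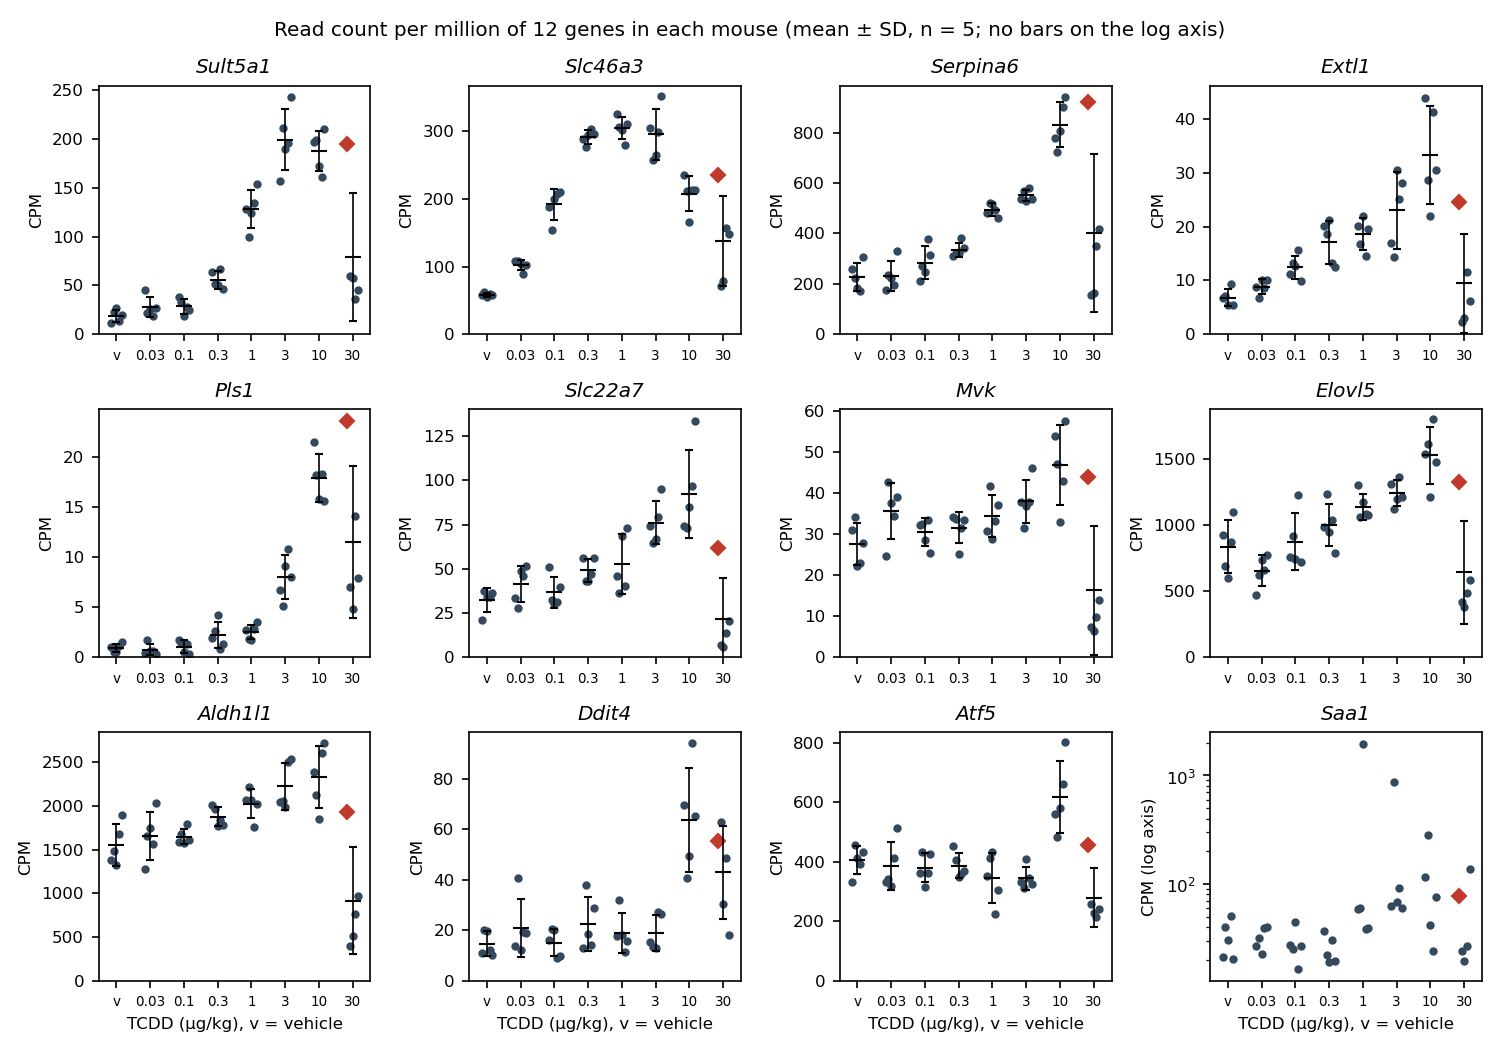
CPM of 12 members in each mouse (points, with mean ± SD, n = 5) by TCDD dose in µg/kg, v being vehicle and the red diamond replicate 1 at 30 µg/kg. Sult5a1 and Slc46a3 climb from low doses, Ddit4 and Atf5 show no climb up to 3 µg/kg, and the Saa1 panel has a log axis without error bars because 1 mouse at 1 µg/kg reaches 1963 CPM.

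For 3 members no vehicle library held more than 3 counts. Adra2c, the alpha-2C adrenergic receptor whose promoter is printed above, reached 2 counts in 1 vehicle mouse and was at 0 in the others. Its CPM was 7.00, 4.24, 4.95, 8.76 and 5.83 at 10 µg/kg and 5.41, 0, 0.191, 0.159 and 0.885 at 30 µg/kg. Replicate 1 at 30 µg/kg lay within the 10 µg/kg range and the other 4 mice lay well below it. Measured against a floor of 3 counts per library, which is 0.188 CPM in vehicle, expression was at least 32.8-fold higher at 10 µg/kg. Between 0.03 and 3 µg/kg it rose by 1.93 ± 0.23 log2 per step (SE, edgeR adjusted p = 2.21e-06), and reached 2.32 ± 0.790 CPM at 3 µg/kg (SD, n = 5).

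Hmx1, a homeobox transcription factor, lies 107345 bases from Adra2c on chromosome 5. Its CPM was 6.28, 4.89, 15.7, 11.0 and 4.44 at 10 µg/kg and 22.5, 0.333, 0.648, 1.43 and 5.31 at 30 µg/kg, and a single count was found over the vehicle mice. The replicate 1 mouse at 30 µg/kg was the highest of all and another mouse of that group overlapped the 10 µg/kg mice. Expression at 10 µg/kg was at least 45.1-fold higher than the vehicle floor, and 1.40-fold higher than at 30 µg/kg with replicate 1 or 4.38-fold without it. Exons of Hmx1 overlap an annotated gene on the opposite strand (4930442P19Rik), and the libraries do not keep strand. Sorcs3, a sorting receptor best known from the brain, reached no more than 3 counts in vehicle mice and had 9.25, 5.76, 4.90, 10.4 and 6.00 CPM at 10 µg/kg, at least 38.7-fold above the floor. At 30 µg/kg it had 9.57 CPM in replicate 1 and 0.582, 0.152, 1.15 and 1.60 CPM in the other 4 mice, all 4 of them below every 10 µg/kg mouse.

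Pls1, Hrk, Slc22a29 and Tnfaip8l3 also had vehicle means under 1 CPM. The first, plastin 1, bundles actin, and Hrk is a BH3-only promoter of apoptosis. Slc22a29 is an organic anion transporter family gene, and Tnfaip8l3 carries phosphoinositides. Their means at 10 µg/kg were 18.9-fold, 49.9-fold, 20.9-fold and 13.8-fold that of vehicle, in that order. At 30 µg/kg the means were 12.1-fold, 32.4-fold, 13.8-fold and 7.50-fold that of vehicle, and without replicate 1 they were 8.92-fold, 22.2-fold, 8.53-fold and 6.58-fold. All 4 rose over 0.03 to 3 µg/kg in the edgeR test, with slopes of 0.78 to 0.93 log2 per step, and Pls1 went from 2.54 ± 0.742 CPM at 1 µg/kg to 8.00 ± 2.20 at 3 µg/kg (SD, n = 5). Pls1, Hrk and Tnfaip8l3 were chosen for mention after their values were seen.

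Extl1 (ENSMUSG00000028838), a glycosyltransferase of the heparan sulfate pathway, had a mean at 10 µg/kg that lay at least 1.97 on the deposited log2 scale above both vehicle and 30 µg/kg, next to 1.96 for Adra2c. Its CPM was 6.81, 7.02, 5.37, 9.37 and 5.44 in vehicle, 44.0, 28.8, 22.0, 41.4 and 30.6 at 10 µg/kg, and 24.6, 2.29, 2.93, 11.5 and 6.11 at 30 µg/kg. Vehicle and 10 µg/kg did not overlap, while at 30 µg/kg replicate 1 lay within the 10 µg/kg range and 2 mice lay below every vehicle mouse. It rose by 0.33 ± 0.04 log2 per step over 0.03 to 3 µg/kg (SE, edgeR adjusted p = 3.4e-06).

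Serpina6, corticosteroid-binding globulin, carries glucocorticoids in plasma. Its CPM was 259, 223, 182, 172 and 305 in vehicle, 778, 724, 809, 900.2 and 943 at 10 µg/kg, and 922, 155, 163, 352 and 416 at 30 µg/kg. The 10 µg/kg mice lay far above vehicle, and replicate 1 at 30 µg/kg lay among them. Of the other mice at 30 µg/kg, 2 lay below every vehicle mouse and 2 lay above every vehicle mouse. The means at 0.3, 1 and 3 µg/kg were 336 ± 27.7, 495 ± 26.0 and 551 ± 23.2 CPM (SD, n = 5), and the slope was 0.33 ± 0.03 log2 per step (SE, edgeR adjusted p = 1.92e-08). Among the 27 serine protease inhibitor genes tested, 5 rose and 11 fell, and Serpina6 was the only member of the list.

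Of the 6 solute carrier members, Slc34a2, a sodium phosphate cotransporter, was the one that differed most from vehicle at 10 µg/kg after Slc22a29. It had 4.23, 5.22, 6.60, 3.29 and 3.86 CPM in vehicle, 35.4, 21.5, 29.7, 45.7 and 17.9 at 10 µg/kg, and 53.3, 3.03, 1.49, 8.29 and 17.3 at 30 µg/kg. Its 30 µg/kg mice ranged from below vehicle to above every 10 µg/kg mouse. It was 2.13 ± 0.44 higher on the log2 scale at 3 than at 0.03 and 0.1 µg/kg (SE, edgeR adjusted p = 0.00128, and 0.0852 in numbering run 1 alone), and at 1 µg/kg the same difference was 0.47 ± 0.48 (edgeR adjusted p = 0.697). Slc22a7, the organic anion transporter OAT2, had 20.9, 37.3, 33.9, 34.2 and 36.4 CPM in vehicle, 74.1, 72.9, 84.7, 96.7 and 133 at 10 µg/kg, and 62.0, 6.86, 6.02, 13.9 and 20.6 at 30 µg/kg. Every 10 µg/kg mouse lay above all mice of vehicle and of 30 µg/kg, and 4 of the 5 mice at 30 µg/kg lay below every vehicle mouse. It rose by 0.23 ± 0.04 log2 per step (SE, edgeR adjusted p = 0.000469), while of the 19 bile acid and organic anion transporters tested 2 rose, Slc22a7 among them, and 6 fell. Slc6a12, the betaine transporter, rose by 0.15 ± 0.02 log2 per step (SE, edgeR adjusted p = 5.57e-05). Slc3a1, the heavy subunit of the cystine and dibasic amino acid transporter, had 26.2 ± 4.69 CPM at 0.03 µg/kg and 33.1 ± 8.49 at 3 µg/kg (SD, n = 5) and did not pass the slope test (edgeR adjusted p = 0.23).

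The 9 members below vehicle at 30 µg/kg were mostly metabolic enzymes and transporters, among them Rdh16f2, C4a, Slc3a1, Nat8, Mvk, Slc22a7, Aldh1l1 and Prodh. Prodh starts the breakdown of proline, and C4a is a complement gene whose reads may not be told from those of its near-identical copy C4b. They had 1.51-fold to 2.84-fold the vehicle mean at 10 µg/kg and 0.468-fold to 0.672-fold at 30 µg/kg in CPM, or 0.207-fold to 0.432-fold without replicate 1. Aldh1l1, the 10-formyltetrahydrofolate dehydrogenase of folate metabolism, had 1375, 1479, 1322, 1680.4 and 1899 CPM in vehicle, 2384, 2119, 1851, 2602 and 2720.2 at 10 µg/kg, and 1929, 401, 512, 765 and 974 at 30 µg/kg. At 10 µg/kg 1 mouse fell within the vehicle range, and the 4 other mice at 30 µg/kg lay below every vehicle mouse while replicate 1 lay just above that range. It rose by 0.11 ± 0.02 log2 per step (SE, edgeR adjusted p = 0.000689), a call that was lost in the edgeR fit of all 40 libraries (adjusted p = 0.124).

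Cholesterol and fatty acid synthesis contributed 3 members, and most of that list fell or did not pass. Over 0.03 to 3 µg/kg 2 of its 31 genes rose, Elovl5 among them, and 8 fell (edgeR). Elovl5, the elongase of polyunsaturated fatty acids, had 924, 691, 599, 869.9 and 1102 CPM in vehicle, 1538, 1610.0, 1212, 1799 and 1480.3 at 10 µg/kg, and 1328, 420.2, 383, 489 and 588 at 30 µg/kg. Every 10 µg/kg mouse lay above every vehicle mouse, and the 4 mice at 30 µg/kg other than replicate 1 lay below every vehicle mouse. It rose by 0.22 ± 0.03 log2 per step (SE, edgeR adjusted p = 9.66e-06).

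Mvk, mevalonate kinase, had 31.0, 34.1, 22.3, 22.9 and 27.9 CPM in vehicle, 53.8, 46.9, 32.8, 42.9 and 57.5 at 10 µg/kg, and 44.0, 7.44, 6.32, 9.84 and 13.9 at 30 µg/kg. The 10 µg/kg mice overlapped the vehicle mice in 1 animal, 4 mice at 30 µg/kg lay below all others, and its slope did not pass (0.04 ± 0.03 log2 per step, SE, edgeR adjusted p = 0.507).

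The 3 aldehyde dehydrogenase family members were Aldh1l1, Aldh1b1 and Aldh16a1. Aldh1b1, a mitochondrial enzyme, rose from 82.1 ± 26.8 CPM at 0.03 µg/kg and 62.0 ± 6.02 at 0.1 µg/kg to 151 ± 30.3 at 3 µg/kg (SD, n = 5), a slope of 0.24 ± 0.04 log2 per step (SE, edgeR adjusted p = 7.18e-05). Aldh16a1, whose exons overlap Pih1d1 on the opposite strand, rose by 0.21 ± 0.03 log2 per step (SE, edgeR adjusted p = 6.23e-06). Their means at 30 µg/kg were 1.61-fold and 1.18-fold that of vehicle, and without replicate 1 they were 1.27-fold and 0.935-fold, the latter below vehicle. Several other members sat as neighbours on a chromosome. The retinol dehydrogenases Rdh16 and Rdh16f2 lie 19909 bases apart on chromosome 10, Nat8 and Nat8f5 lie 9416 bases apart on chromosome 6, and Elovl5 lies within 200000 bases of the transcripts Gm19572 and Gm34654 on chromosome 9. Reads of Rdh16 and Rdh16f2, and of Nat8 and Nat8f5, may not be told from those of near-identical copies. Rdh16f2 had a drop of 2.52 on the deposited log2 scale from 10 to 30 µg/kg, with 248 CPM in replicate 1 and 14.0, 13.9, 19.7 and 89.5 in the other mice at 30 µg/kg.

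Neither the slope nor a comparison below 10 µg/kg passed for 17 members, among them the stress-response genes Ddit4 and Atf5, the immediate early gene Egr1, the T cell factor Tcf7 and the kinase Map3k13. Ddit4, an inhibitor of mTORC1 that responds to stress and glucocorticoids, had 10.8, 20.1, 19.7, 12.3 and 10.2 CPM in vehicle, 69.6, 40.6, 49.4, 94.0 and 65.1 at 10 µg/kg, and 55.2, 62.6, 30.3, 48.3 and 17.9 at 30 µg/kg. The vehicle and 10 µg/kg mice were fully separate, and the 30 µg/kg mice overlapped both. Its means at the 5 lower doses ran from 15.1 ± 5.48 to 22.4 ± 10.6 CPM (SD, n = 5), and its slope was 0.00 ± 0.08 log2 per step (SE, edgeR adjusted p = 0.985).

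Atf5, a transcription factor of the integrated stress response, had 332 to 455 CPM in vehicle, 559.6, 484, 579.7, 663 and 804 at 10 µg/kg, and 457, 257, 226, 215 and 243 at 30 µg/kg. Every 10 µg/kg mouse lay above every mouse of vehicle and of 30 µg/kg, and 4 of 5 mice at 30 µg/kg lay below every vehicle mouse. Its slope was −0.05 ± 0.03 log2 per step (SE, edgeR adjusted p = 0.402), and its exons overlap Nup62 and Il4i1 on the opposite strand. Of the 32 integrated stress and unfolded protein response genes tested over 0.03 to 3 µg/kg, 4 rose and 10 fell, Ddit4 and Atf5 being in neither count. Egr1 was scattered, with 3.38, 1.55, 0.323, 3.63 and 36.4 CPM in vehicle, 17.9, 108, 19.9, 25.6 and 53.6 at 10 µg/kg, and 18.4, 14.0, 12.3, 29.2 and 10.7 at 30 µg/kg. Vehicle replicate 5 lay above 3 of the 5 mice at 10 µg/kg, and the SD at 0.03 µg/kg (33.9 CPM) exceeded the mean (22.9 CPM).

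The values of the immune members rested on few mice. Saa1 and Saa2, neighbouring genes for serum amyloid A, an acute phase apolipoprotein, are near-identical, and their reads may not be told apart. Saa1 had 21.1, 39.7, 30.3, 50.8 and 20.4 CPM in vehicle, 117, 285, 41.7, 23.8 and 76.3 at 10 µg/kg, and 77.4, 24.2, 19.7, 26.9 and 139 at 30 µg/kg. The groups overlapped throughout, and the highest values came from 1 mouse at 1 µg/kg (1963 CPM) and 1 mouse at 3 µg/kg (877 CPM). Saa2 had 4.67, 8.08, 8.08, 7.13 and 9.59 CPM in vehicle, 67.2, 204, 20.8, 8.23 and 35.0 at 10 µg/kg, and 44.3, 9.52, 6.29, 10.6 and 71.9 at 30 µg/kg.

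At 10 µg/kg 1 mouse lay within the vehicle range of Saa2 and the other 4 above it. The same pair of mice led as for Saa1, with 1517 CPM at 1 µg/kg and 656 CPM at 3 µg/kg. Both genes passed the slope test (edgeR adjusted p = 0.00188 for Saa1 and 0.000338 for Saa2). Within the numbering runs alone Saa1 did not pass it (edgeR adjusted p = 0.0553 in run 1 and 0.059 in run 2). At 3 against 0.03 and 0.1 µg/kg both passed, and without replicate 2 at 3 µg/kg neither did (edgeR adjusted p = 0.273 for Saa1 and 0.0513 for Saa2). DESeq2 gave no adjusted p for either gene. Of the 35 acute phase genes tested 10 rose and 3 fell over 0.03 to 3 µg/kg.

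Ighm, the constant region of the IgM heavy chain and a B cell and plasma cell marker, was chosen for mention after its values were seen. Its CPM at 10 µg/kg was 61.9 and 47.6 in replicates 1 and 2 and 10.6, 15.3 and 17.0 in the other 3 mice, against 7.56 to 15.8 in vehicle and 7.65 to 18.5 at 30 µg/kg. The 3 lower mice at 10 µg/kg lay within the range of the 30 µg/kg mice. It rose by 0.29 ± 0.07 log2 per step over 0.03 to 3 µg/kg (SE, edgeR adjusted p = 0.00514), and in numbering run 2 alone it did not pass (adjusted p = 0.287). The 11 B cell and plasma cell markers, Ighm included, summed to 16.0 to 26.4 CPM in vehicle, 28.0 to 78.6 at 10 µg/kg and 19.1 to 42.7 at 30 µg/kg, and the part of these cells in the values of Ighm was not tested. Of the 8 of these markers tested, 2 rose, Ighm among them, and 0 fell by edgeR.

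Among the other members of large peak, Cenpm, a centromere protein, had 10.6 ± 1.06 CPM at 10 µg/kg against 2.07 ± 0.874 in vehicle and 4.01 ± 2.77 at 30 µg/kg (SD, n = 5), where the mean without replicate 1 was 2.92 CPM, and every 10 µg/kg mouse lay above all mice of both groups. It rose by 0.38 ± 0.06 log2 per step (SE, edgeR adjusted p = 4.43e-05). Tert, the catalytic subunit of telomerase, rose by 0.36 ± 0.04 log2 per step (SE, edgeR adjusted p = 4.68e-07), from 10.3 ± 2.85 CPM at 0.03 µg/kg to 26.2 ± 6.71 at 3 µg/kg (SD, n = 5). Hectd2os, antisense to Hectd2, had 38.8 ± 15.1 CPM at 10 µg/kg and 46.6 ± 12.7 at 3 µg/kg (SD, n = 5), but its reads cannot be told from those of Hectd2 without strand. For 20 further members the mean at 10 µg/kg lay 0.60 to 1.59 on the log2 scale above vehicle and 0.61 to 1.41 above 30 µg/kg. No member belonged to 23 of the 30 gene and marker lists examined.

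In means within each numbering run of the mice, the difference of 10 from vehicle and from 30 µg/kg was above 0 in both runs for 63 of the 66 members, which the choice on the same mice largely fixes. The exceptions were Ddit4 (drop −0.15 in run 1), Lad1 (drop −0.01 in run 1) and Saa1 (drop −0.01 in run 2). Scaling to total counts alone, which shifts the median difference of all genes between 10 and 30 µg/kg from −0.03 to −0.26 on the log2 scale, left the drop above 0 for all 66 members and at least 0.585 for 45 of them.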

How the data were processed

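Liver RNA was sequenced in 40 mice, 5 per group. The authors deposited gene counts per library and a table of normalized log2 values. Per the submitters' processing notes the tools were FastQC 0.11.7, Trimmomatic 0.39 and STAR 2.7.3a, and both GRCm39 and mm10 are named as builds. The annotation is not given in the sources used here. The log2 table the authors deposited holds the 23120 genes with a highest count of at least 5, and for them it was recomputed from the counts as the variance stabilizing transformation of DESeq2.

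Rows that name no gene, which took 19.2 to 28.7% of the counts of a library, were left out. First and second strand settings shared the counts evenly (50.0 to 50.3% on the first), so strand was not kept. Groups and replicates followed the labels, with replicates numbered in accession order. CPM, which is not corrected for gene length, was computed from total counts in genes times the TMM factor.

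Tests used edgeR 4.0.16 in R 4.3.3 (quasi-likelihood, TMM, filterByExpr with a minimum count of 10, Benjamini-Hochberg over 14242 genes) on the 25 libraries of 0.03 to 3 µg/kg. P-values weigh each difference or slope against the spread between mice. DESeq2 1.42.0, other scaling, filters, covariates and left-out libraries were alternatives. On simulated counts the slope test recovered 72% of genes changed by 0.2 log2 per step and 89% by 0.4, with 5.85% of calls false. No replicate pair of a group agreed within sampling noise.

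The members and the gene lists were chosen with earlier results of these data known. Genes named were the 16 members with the largest smaller difference, members of the gene lists and of the Slc and Aldh families, the 4 with the smallest slope p, and the 3 nearest the threshold on each side. Rdh16f2, Prodh, Nat8, C4a, Ighm, Pls1, Hrk, Tnfaip8l3, Tcf7 and Map3k13, and genes named as exceptions or neighbours, were chosen after their values were seen. Promoters came from RefSeq, build GRCm38.p6, and overlaps from an annotation of the same build, which may differ from the one used for counting. A few genes are counted but not reported by name here.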

Additional observations from a re-analysis of the deposited data

Results flagged for a closer look

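In 65 groups of 5 mice examined for the members named, 4 held a mouse whose gap to the nearest other mouse exceeded 0.710 of the range of its group, where chance gives about 1 in 20 groups. Adra2c had counts in vehicle replicate 2 alone, and Hmx1 in vehicle replicate 3 alone, so the gap took the whole range (1.0) in both, on 2 counts and 1 count. Slc22a7 was lowest in vehicle replicate 1, at 20.9 CPM (0.821 of the range). Atf5 was highest in replicate 1 at 30 µg/kg, at 457 CPM (0.756 of the range).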

How the results depend on the processing

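No paired analysis was possible because the labels give no replicate numbers that groups share, and the numbers used here follow accession order. The slope count of 46 members ranged from 44 to 47 with 1 library left out, the count of 35 at 3 µg/kg from 35 to 38, the count of 23 at 1 µg/kg from 18 to 25 and the count of 0 between 1 and 3 µg/kg from 0 to 0. The count at 1 µg/kg was 22 in numbering run 1 alone (12 mice) and 8 in run 2 alone (13 mice). Between 1 and 3 µg/kg DESeq2 called 2 members and the fit without a filter on low counts called 1. With differences of at least 1 in place of 0.585, 16 genes met the rule in place of 66, and with 1 library left out 54 to 87 did, the highest without replicate 1 at 30 µg/kg. Against vehicle, 34 members were above and 25 near at 30 µg/kg on total counts alone. With 1 library left out the members above numbered 13 to 24, near 33 to 41 and below 9 to 16, the last without replicate 1 at 30 µg/kg. Without that mouse all 10 µg/kg mice lay above the 30 µg/kg mice for 46 members and above those and vehicle for 41. The cause of these shifts was not tested. Of 128 results for single members in these tests, 81 kept their side of the threshold in every alternative. Of these, 12, none of them called, took both signs, and no called result changed sign.
Limits: 3 members with no more than 3 counts in any vehicle mouse have only lower bounds of their folds, 14 members overlap exons on the opposite strand, and 5 mice per group limit the tests below 10 µg/kg.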
